A study of Mus musculus with 6 samples.

Results

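Blood vessels are lined by endothelial cells, and the 32 genes described here are linked to that lining in general. They were read in the mouse glomerulus, the capillary tuft that filters blood in the kidney. Of the 32, 5 are tied to glomerular endothelium, and some, such as Lpl, are also made by other cell types. The list was chosen by symbol for endothelial identity, by a rule that uses no measured value, although earlier results of these data were known. All 32 were found among the 55401 Ensembl genes of the deposited count table, and all 32 passed the filter on low counts that left 19717 genes for testing. RNA came from glomeruli isolated from mice, with 3 DKD libraries and 3 Control libraries, DKD standing for diabetic kidney disease in the series title. The labels give the genotype of each sample only as DKD or Control. The labels leave unstated the strain, age and sex, how disease was induced and whether animals were pooled. The p-values therefore measure the spread between these libraries, which the labels do not tie to separate animals.

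Glomerular endothelium is thin and pierced by open pores, and it depends on growth factors from the podocytes on the other side of the filter. Cadherins, claudins and immunoglobulin-domain proteins hold endothelial cells together, while ERG and SOX17 and SOX18 set the identity programme and KLF2 and KLF4 respond to blood flow. Endothelial cells also make nitric oxide, control clotting and pass lipid from blood to tissue. In diabetic kidney disease in general, injury to this lining is a known early feature.

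No endothelial gene passed the edgeR test between DKD and Control, and the median fold change of the list was small beside the spread between libraries. By edgeR's quasi-likelihood test with Benjamini-Hochberg adjustment 0 of 32 passed at an adjusted p under 0.05, where 1.16% of all genes tested did (0.725% higher and 0.431% lower in DKD). At an unadjusted p under 0.05 there were 3 (9.38%), all lower in DKD, namely Ehd3, Emcn and Lpl, against 22.6% of all genes (11.8% higher and 10.9% lower). DESeq2 called 2, Ehd3 and Lpl, both lower, against 13.7% of all genes it tested (7.46% higher and 6.2% lower), and limma-voom called 0. The median log2 fold change, DKD over Control, was −0.090 for the 32 genes and 0.003 over all genes tested, and 20 of the 32 (62.5%) were below 0, as were 49.8% of all genes. Between libraries, the list's median log2 deviation from the group mean had an SD of 0.34. These libraries therefore cannot show that the list was unchanged. Levels are given in CPM, counts relative to the library total scaled with TMM factors (which put libraries on a common scale). On that scale the DKD and Control values did not overlap for 2 of the 32 genes (6.25%), Ehd3 and Lpl, both lower in DKD, against 30.7% of all genes (15.5% higher and 15.2% lower). The shares of the list at an unadjusted p under 0.05 and without overlap were below those of all genes, and the share with a fold change below 0 was above. In bulk samples such as these, fewer endothelial cells and less RNA per cell cannot be told apart.

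**Figure D1:**
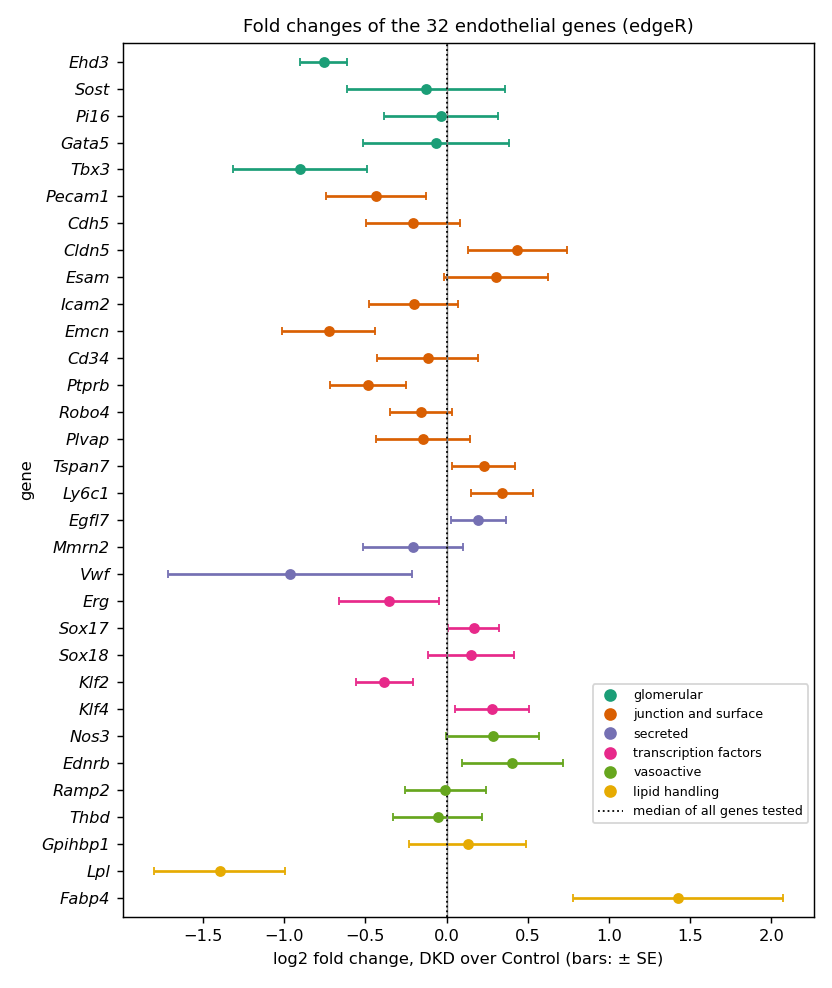
Log2 fold change, DKD over Control, of the 32 endothelial genes by edgeR (points, with bars of ± 1 SE), coloured by role, with the median of all genes tested as a dotted line. Ehd3, Emcn and Lpl lay farthest below 0 relative to their error, and Fabp4 lay highest at 1.42 with a wide error.

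Libraries of the same group differed from each other across most of the list. DKD replicate 1 was the lowest of the DKD libraries for 25 of the 32 genes (78.1%), where it was lowest for 30.4% of all genes tested. Control replicate 3 was the lowest of the Control libraries for 27 of the 32 (84.4%), where it was lowest for 42.9% of all genes. Without the 3 lipid handling genes, the other 29 genes summed to 553, 844 and 800 CPM in DKD replicates 1 to 3, against 946, 873 and 605 CPM in Control replicates 1 to 3. A separate list of 32 other pan-endothelial genes summed to 558, 802 and 798 CPM in DKD replicates 1 to 3, against 998, 901 and 700 CPM in Control replicates 1 to 3. On each list, DKD replicate 1 and Control replicate 3 held the lowest sum of their group, and the groups overlapped.

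Both of these libraries were also lowest of their group for 7 fibroblast markers, at 111 against 368 and 284 CPM in the other DKD libraries, and 118 against 323 and 294 CPM in the other Control libraries. Proximal tubule markers, from the segment after the glomerulus, summed to 37310 CPM in Control replicate 3, against 17309 and 19268 CPM in the other Control libraries. In DKD they summed to 16197, 17581 and 8917 CPM in replicates 1 to 3, so DKD replicate 1 did not share the high tubule level. All 10 tubule markers had a log2 fold change below 0 (100%, against 49.8% of all genes). At an unadjusted p under 0.05 by edgeR there were 6, all lower in DKD (60%, against 10.9% of all genes lower). The groups did not overlap for 6, all lower in DKD (60%, against 15.2% of all genes lower). Of the 10, Slc5a2 and Slc5a12, sodium-coupled carriers of glucose and lactate, fell in DKD by edgeR, where 0.431% of all genes fell. Their log2 fold changes were −1.82 ± 0.30 and −2.56 ± 0.25 (± SE, adjusted p 0.0445 and 0.0192). Control replicate 3 also stood apart on the first principal component of all genes, at −101 against −18.0 and −15.0 for the other Control libraries. Leaving out Control replicate 3, the endothelial median was −0.24, 7 of the 32 genes had an unadjusted p under 0.05 by edgeR (21.9%, against 24.1% of all genes), and 0 passed after adjustment. The 4 added by this were Tbx3, Ptprb, Vwf and Klf2, all lower in DKD. Leaving out DKD replicate 1, 5 of the 32 had an unadjusted p under 0.05 by edgeR (15.6%, against 15.6% of all genes), Ly6c1, Ednrb and Fabp4 higher in DKD and Ehd3 and Lpl lower, and 0 passed after adjustment. Leaving out DKD replicate 1 or Control replicate 1, the median was 0.051 or 0.036, so its sign depended on single libraries. The part of tubule or fibroblast RNA in the endothelial values was not tested.

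**Figure D2:**
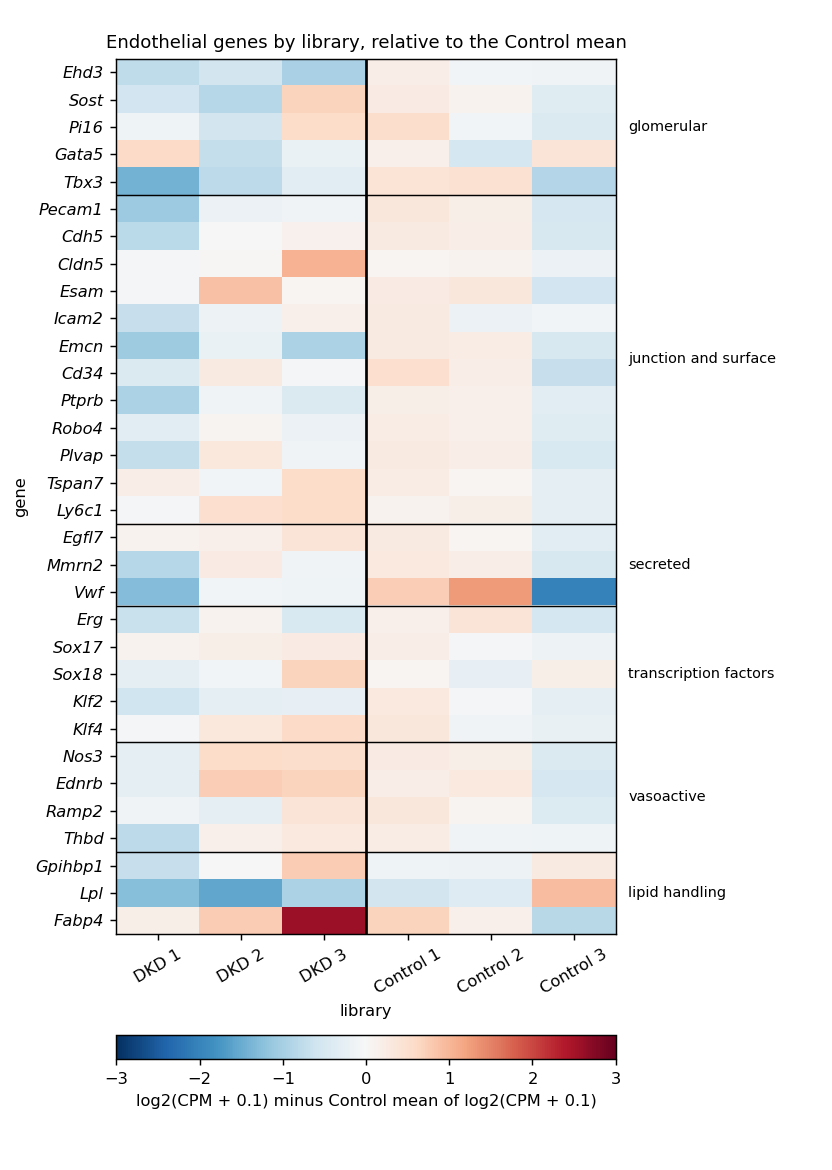
Level of each of the 32 endothelial genes (rows, grouped by role) in each library (columns), as log2(CPM + 0.1) minus the Control mean of that value. The columns of DKD replicate 1 and Control replicate 3 are blue for most genes, Ehd3 is blue in all 3 DKD libraries, and the darkest red is Fabp4 in DKD replicate 3.

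**Figure D3:**
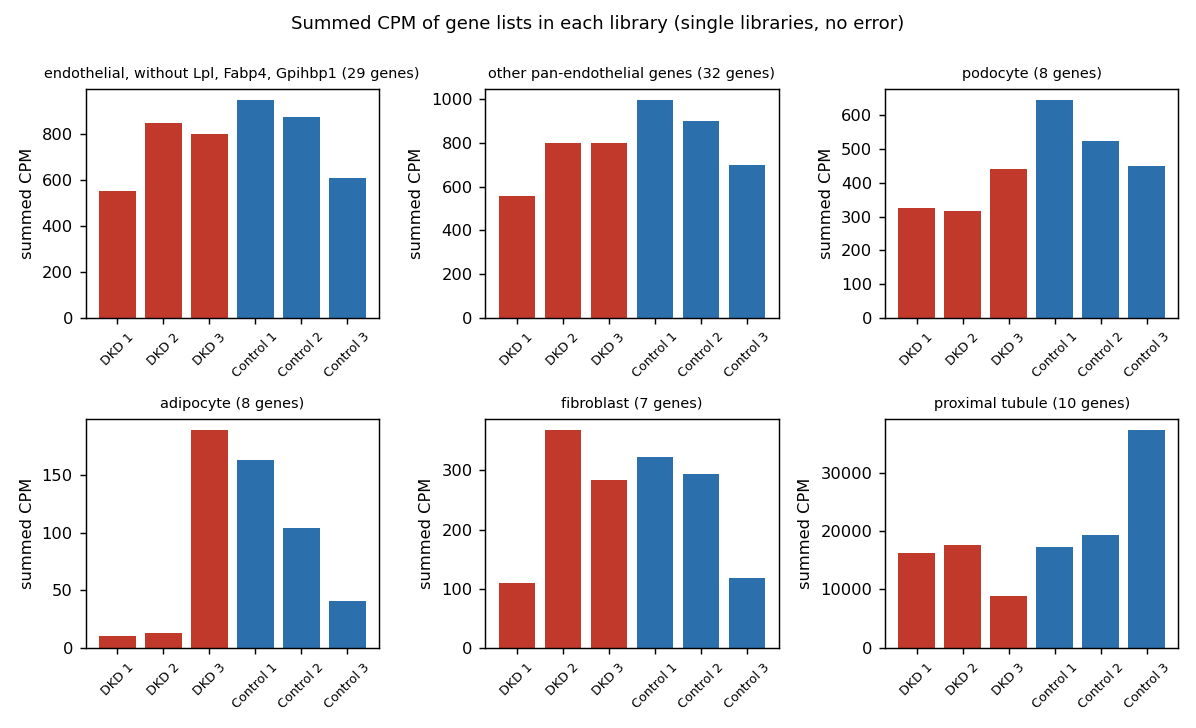
Summed CPM of 6 gene lists in each library, 1 bar per library. The 2 endothelial panels share their low libraries, DKD replicate 1 and Control replicate 3, whereas the tubule list peaks in Control replicate 3 and the adipocyte list in DKD replicate 3.

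Among the 5 genes tied to glomerular endothelium, Ehd3 was lower in every DKD library than in every Control library. Ehd3 encodes an EH-domain ATPase of membrane recycling and is a marker of the glomerular capillary in the mouse. It was measured at 32.9, 37.7 and 28.4 CPM in DKD replicates 1 to 3, against 63.4, 52.7 and 51.4 CPM in Control replicates 1 to 3. The lowest Control library lay above the highest DKD library, and DKD replicate 1 was not the lowest of its group. The mean was 33.0 ± 4.69 CPM in DKD and 55.8 ± 6.58 CPM in Control (SD, n = 3 each). Its fold change on the log2 scale was −0.76 ± 0.14 (SE), with an unadjusted p of 0.00104 and an adjusted p of 0.0573 by edgeR, and between −0.88 and −0.66 with any library left out. By DESeq2 the adjusted p of Ehd3 was 0.000463, and with a filter of at least 1 CPM in 3 libraries it was 0.0460 by edgeR. Over the alternatives tried it ran from 0.000463 to 0.177.

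Podocyte markers, from the cells on the outer face of the same capillaries, gave 0 calls of 8 by edgeR. Of the 8, 7 had a log2 fold change below 0 (87.5%, against 49.8% of all genes) and 1 above. The groups did not overlap for 5, all lower in DKD (62.5%, against 15.2% of all genes lower and 30.7% either way). At an unadjusted p under 0.05 there were 6, all lower (75%, against 10.9% of all genes lower and 22.6% either way). Their summed level was 326, 318 and 442 CPM in DKD replicates 1 to 3, against 646, 523 and 451 CPM in Control replicates 1 to 3. Ptpro, a receptor phosphatase of podocytes, was measured at 12.1, 14.2 and 14.7 CPM in DKD and 29.2, 26.2 and 19.0 CPM in Control (adjusted p 0.0637 by edgeR). None of the 8 was at 0 in all libraries. The part of these podocyte values in the Ehd3 result was not tested.

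The other 4 glomerular markers had no such separation. Tbx3, a T-box repressor, was measured at 4.12, 6.50 and 8.92 CPM in DKD, against 14.9, 15.4 and 6.11 CPM in Control. Control replicate 3 lay within the DKD range and the other Control libraries above it. The log2 fold change of Tbx3 was −0.90 ± 0.41 with an adjusted p of 0.248 by edgeR, and without Control replicate 3 it was −1.22 with an adjusted p of 0.0822. Pi16, which encodes a secreted peptidase inhibitor that also marks fibroblasts, averaged 9.37 ± 3.72 CPM in DKD and 9.60 ± 3.38 CPM in Control. Sost, which encodes the WNT antagonist sclerostin, was measured at 0.971, 0.776 and 2.41 CPM in DKD and 1.78, 1.62 and 1.14 CPM in Control. Gata5, a zinc-finger transcription factor, was measured at 2.27, 0.859 and 1.28 CPM in DKD and 1.65, 1.00 and 1.96 CPM in Control. Sost and Gata5 were thus near 1 to 2 CPM in most libraries, their groups overlapped, and their log2 fold changes (−0.13 ± 0.49 and −0.065 ± 0.45) were smaller than their errors.

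**Figure D4:**
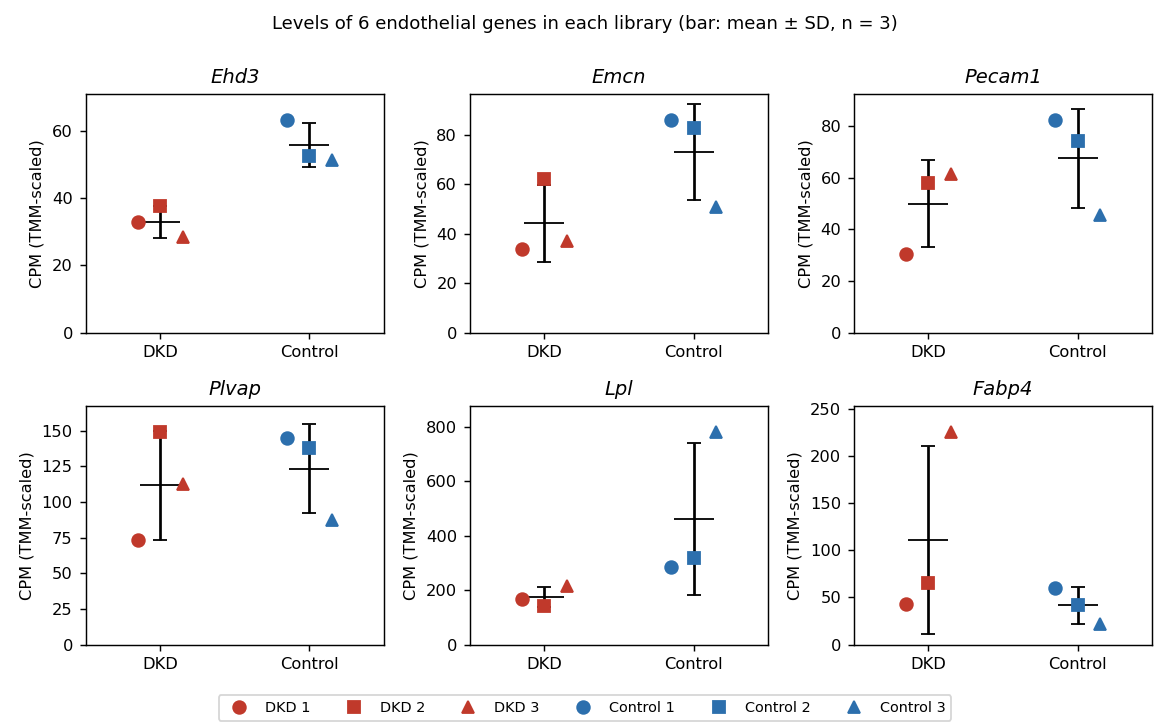
CPM of 6 endothelial genes in each library (points, shape by replicate number) with mean ± SD, DKD left of Control. Ehd3 and Lpl do not overlap between groups, and the other 4 do. Single libraries raise the Control mean of Lpl (Control replicate 3 at 783 CPM) and the DKD mean of Fabp4 (DKD replicate 3 at 226 CPM).

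Over the 12 junction and surface genes the median log2 fold change was −0.15, with 8 below 0. Emcn, which encodes the sialomucin endomucin of capillaries and veins, was measured at 33.7, 62.1 and 36.9 CPM in DKD, against 86.0, 82.6 and 50.8 CPM in Control. The groups overlapped through DKD replicate 2 and Control replicate 3. Its log2 fold change was −0.73 ± 0.29, with an adjusted p of 0.196 by edgeR that ran from 0.0795 to 0.443 over the alternatives. Pecam1, the adhesion protein CD31, was measured at 30.7, 57.9 and 61.3 CPM in DKD, against 82.5, 74.4 and 45.8 CPM in Control. Ptprb, the phosphatase VE-PTP that acts on TIE2 and VE-cadherin, was measured at 25.4, 45.8 and 36.3 CPM in DKD, against 55.6, 55.1 and 39.3 CPM in Control. For Pecam1 and Ptprb, Control replicate 3 lay among the DKD values, and the log2 fold changes were −0.44 ± 0.31 and −0.48 ± 0.24.

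Cdh5, which encodes VE-cadherin of adherens junctions, was measured at 16.2, 28.8 and 31.5 CPM in DKD, against 34.7, 33.0 and 20.5 CPM in Control. This was the library pattern of the whole list, with DKD replicate 1 and Control replicate 3 low, and the log2 fold change was −0.21 ± 0.29. Plvap, which forms the diaphragms of fenestrae and is low in mature glomerular endothelium but high in other kidney capillaries, was measured at 73.0, 149 and 113 CPM in DKD and 145, 138 and 87.7 CPM in Control. Plvap was the most abundant of the 12 per length, and its groups overlapped. Robo4, a receptor that stabilises vessels, and Cd34, a sialomucin of progenitors and capillaries, had log2 fold changes of −0.16 ± 0.19 and −0.12 ± 0.31. Icam2, a ligand of leukocyte integrins, had −0.20 ± 0.27.

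The other 4 surface genes had positive log2 fold changes that did not pass the test. Cldn5, the tight junction claudin, was measured at 9.43, 9.99 and 20.2 CPM in DKD and 10.2, 10.5 and 8.58 CPM in Control, so that DKD replicate 3 alone lay clearly above the rest. Without DKD replicate 3 its log2 fold change was −0.0080, against 0.43 ± 0.31 with all libraries. Esam, an adhesion molecule of tight junctions, was highest in DKD replicate 2 at 48.0 CPM, with 24.9 and 27.2 CPM in the other DKD libraries and values between 17.3 and 32.6 CPM in Control. Tspan7, a tetraspanin, had a log2 fold change of 0.23 ± 0.19. Ly6c1, a GPI-anchored surface protein of endothelium and some leukocytes, was measured at 57.2, 82.2 and 85.2 CPM in DKD and 63.4, 65.5 and 48.0 CPM in Control. The log2 fold change of Ly6c1 was 0.34 ± 0.19. Of the 31-base words in its transcripts, 46.8% also occur in other genes such as Ly6c2 and Ly6a, so its count is uncertain.

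Upstream sequence is shown for the genes with the smallest p among the glomerular and the surface markers, Ehd3 and Emcn, and for Robo4, whose libraries followed the common pattern. Capitals mark only GGAAG or CTTCC, a form of the site bound by ETS factors such as ERG, on either strand. The shorter core GGAA or TTCC is left unmarked where it occurs outside that form. Each line gives the 250 bases before the annotated start, 5′ to 3′, from RefSeq on GRCm38.p6, all on the plus strand, at chr17:73804591-73804840 for Ehd3, chr3:137340828-137341077 for Emcn and chr9:37401722-37401971 for Robo4.
Ehd3: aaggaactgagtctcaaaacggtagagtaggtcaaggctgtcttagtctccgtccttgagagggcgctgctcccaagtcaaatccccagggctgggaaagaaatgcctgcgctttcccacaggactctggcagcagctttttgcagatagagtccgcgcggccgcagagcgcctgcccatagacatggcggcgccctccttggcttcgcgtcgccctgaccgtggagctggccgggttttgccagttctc
Emcn: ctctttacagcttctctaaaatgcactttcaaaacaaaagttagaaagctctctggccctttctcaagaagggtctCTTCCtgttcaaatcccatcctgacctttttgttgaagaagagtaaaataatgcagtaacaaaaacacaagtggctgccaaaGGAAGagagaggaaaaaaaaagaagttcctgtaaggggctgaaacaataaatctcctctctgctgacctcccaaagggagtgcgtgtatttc
Robo4: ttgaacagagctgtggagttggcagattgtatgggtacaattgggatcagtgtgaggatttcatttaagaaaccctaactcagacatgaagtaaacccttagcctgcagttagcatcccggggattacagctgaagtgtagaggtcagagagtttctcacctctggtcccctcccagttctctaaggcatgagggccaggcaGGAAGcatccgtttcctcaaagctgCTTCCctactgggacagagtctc
The Emcn window holds 2 matches, starting 174 and 92 bases upstream, and the Robo4 window holds 2, starting 48 and 23 bases upstream. The Ehd3 window holds neither GGAAG nor CTTCC, although it holds the shorter GGAA. A match is common, since 64.1% of the 32851 promoter windows in the table hold one. Of the 32 genes 15 had a window in the table, with 20 windows between them, and 14 of these windows held a match. Counted by gene, 11 of the 15 held a match in at least 1 window.

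The 3 secreted and matrix genes differed in how far their libraries spread. Egfl7, which encodes a secreted vessel-guidance protein and hosts the endothelial microRNA miR-126, was measured at 49.4, 51.0 and 60.2 CPM in DKD and 55.8, 47.7 and 36.8 CPM in Control. These values overlapped, with a log2 fold change of 0.20 ± 0.17. Mmrn2, multimerin 2 of the vessel matrix, had −0.21 ± 0.31. Vwf, the clotting glycoprotein of larger vessels and platelets, was measured at 2.21, 5.26 and 5.12 CPM in DKD, against 9.45, 13.8 and 1.29 CPM in Control. Control replicate 3 held the lowest Vwf value of all 6 libraries and the other Control libraries the highest. The log2 fold change of Vwf was −0.96 ± 0.75 with an adjusted p of 0.491 by edgeR, −1.47 without Control replicate 3 and −0.36 without Control replicate 2. Of 7 platelet markers, 4 passed the filter on low counts and 0 passed the test by edgeR (0 at an unadjusted p under 0.05), and their sum averaged 9.73 ± 0.171 CPM in DKD and 9.65 ± 0.611 CPM in Control. The part of platelet RNA in the Vwf values was not tested.

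The 5 transcription factors had a median log2 fold change of 0.15. Klf2, a flow-responsive factor, was measured at 16.3, 20.6 and 20.8 CPM in DKD, against 30.5, 24.0 and 20.7 CPM in Control. Only Control replicate 3 overlapped the DKD values, and the log2 fold change was −0.38 ± 0.18 with an adjusted p of 0.252 by edgeR. Its relative Klf4, induced by flow and also made by other cell types, had 0.28 ± 0.23, at 8.99, 11.7 and 13.9 CPM in DKD and 11.8, 8.66 and 7.96 CPM in Control. Klf2 and Klf4 thus had fold changes of opposite sign, and neither passed. Erg, the ETS factor that maintains endothelial genes, was measured at 4.77, 8.23 and 5.52 CPM in DKD and 8.48, 9.96 and 5.26 CPM in Control (log2 fold change −0.36 ± 0.31). Sox17 and Sox18, related HMG-box factors of vessel formation, had 0.17 ± 0.16 and 0.15 ± 0.27. Sox17 was among the steadiest genes of the list, at 10.2, 10.8 and 11.3 CPM in DKD and 11.0, 9.17 and 8.60 CPM in Control. A gene model on the opposite strand covers 16.8% of its exonic bases, and whether counting used the strand is unstated.

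Among 11 genes listed for the pathway that induces KLF2 and KLF4, 0 passed the test by edgeR and 3 had an unadjusted p under 0.05, 2 higher and 1 lower in DKD (27.3%, against 22.6% of all genes). Those with the smallest p were Map2k5, the kinase MEK5, at −0.39 ± 0.12 (adjusted p 0.122), and Ccm2, an adaptor that restrains this pathway, at 0.49 ± 0.15 (adjusted p 0.125).

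The vasoactive and anticoagulant genes were near 0, with a median log2 fold change of 0.14 over 4 genes. Nos3, endothelial nitric oxide synthase, was measured at 7.87, 14.1 and 14.02 CPM in DKD, against 11.5, 10.9 and 7.11 CPM in Control. The Nos3 groups overlapped through DKD replicate 1, and the log2 fold change was 0.29 ± 0.29. Other genes on the opposite strand, among them Atg9b, cover 32.3% of its exonic bases. Ednrb, the endothelin receptor that clears endothelin and triggers nitric oxide release, was measured at 13.6, 27.5 and 26.2 CPM in DKD, against 18.9, 20.3 and 11.6 CPM in Control. Its log2 fold change was 0.40 ± 0.31, and here too DKD replicate 1 and Control replicate 3 were the lowest of their groups. Thbd, the anticoagulant receptor thrombomodulin, averaged 21.7 ± 7.76 CPM in DKD and 22.5 ± 3.08 CPM in Control. Ramp2, the partner of the adrenomedullin receptor, averaged 14.7 ± 3.78 CPM in DKD and 14.8 ± 3.76 CPM in Control. An adjoining gene, Vps25, shares 33.4% of the exonic bases of Ramp2, so its count is uncertain.

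Of 15 other genes listed for nitric oxide, endothelin and adrenomedullin, 14 were tested, 0 passed by edgeR and 4 had an unadjusted p under 0.05, 2 higher and 2 lower in DKD (28.6%, against 22.6% of all genes). Ece1, which activates endothelin, was measured at 42.8, 50.4 and 47.8 CPM in DKD, against 73.7, 64.9 and 68.0 CPM in Control (log2 fold change −0.55 ± 0.11, adjusted p 0.0585 by edgeR). The Ece1 groups did not overlap, and neither DKD replicate 1 nor Control replicate 3 set the gap. Adm, which encodes adrenomedullin, was measured at 12.7, 9.85 and 29.9 CPM in DKD, against 9.24, 7.51 and 6.17 CPM in Control (1.19 ± 0.41, adjusted p 0.152 by edgeR).

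Of the 3 lipid handling genes, Lpl and Fabp4 held the extreme fold changes of the list, and the size of each leaned on a single library. Lpl encodes lipoprotein lipase, which is made by parenchymal cells and works on the vessel wall, where the endothelial protein GPIHBP1 anchors it. Lpl was measured at 169, 141 and 215 CPM in DKD, against 284, 317 and 783 CPM in Control. The groups did not overlap, with or without Control replicate 3, which was far above the other Control libraries. The log2 fold change was −1.40 ± 0.40 with an adjusted p of 0.110 by edgeR, and without Control replicate 3 it was −0.78 with an adjusted p of 0.0753. By DESeq2 the adjusted p of Lpl was 0.00514. Control replicate 3 was also the library with the most proximal tubule RNA, at 37310 CPM over the 10 markers. All 10 of these had a log2 fold change below 0. The part of tubule RNA in the Lpl values was not tested. Gpihbp1 was measured at 4.84, 7.80 and 13.5 CPM in DKD and 7.26, 7.12 and 9.49 CPM in Control, with no difference beyond the spread (0.13 ± 0.36).

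Fabp4, a fatty acid carrier of capillary endothelium and adipocytes, was measured at 43.1, 65.0 and 226 CPM in DKD, against 60.5, 42.5 and 21.5 CPM in Control. DKD replicate 3 stood far above all other libraries. The log2 fold change was 1.42 ± 0.65 with an adjusted p of 0.246 by edgeR, and without DKD replicate 3 it was 0.38. Adipocyte markers were in sum highest in that library too, but nearly as high in Control replicate 1, where Fabp4 was at 60.5 CPM. Their summed level over 8 genes was 10.2, 12.6 and 189 CPM in DKD replicates 1 to 3, against 163, 104 and 41.1 CPM in Control replicates 1 to 3. Adipoq, which encodes adiponectin, was at 0 in DKD replicates 1 and 2 and Control replicate 3, at 16.4 CPM in DKD replicate 3, and at 8.97 and 6.03 CPM in Control replicates 1 and 2. The 2 DKD libraries with Adipoq at 0 held Fabp4 at 43.1 and 65.0 CPM, and the Control library with Adipoq at 0 held 21.5 CPM. The part of adipocyte RNA in the Fabp4 value of DKD replicate 3 was not tested.

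Among 12 other genes of endothelial fatty acid handling 1 rose and 0 fell by edgeR, where 0.725% of all genes rose and 0.431% fell. At an unadjusted p under 0.05 there were 4, all higher in DKD (33.3%, against 11.8% of all genes higher and 22.6% either way). The gene that rose was Angptl4, which encodes an inhibitor of lipoprotein lipase, at 222, 194 and 261 CPM in DKD, against 99.7, 87.5 and 91.7 CPM in Control. Its lowest DKD library lay well above its highest Control library, at 1.28 ± 0.15 on the log2 scale (adjusted p 0.0203 by edgeR). Angptl4 is made by many cell types, and its values did not follow DKD replicate 1 or Control replicate 3.

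Per length, the list spanned a wide range of levels. Ordered by the mean of both groups in CPM per kilobase of exons, Plvap came first. It averaged 56.2 ± 19.2 in DKD and 62.2 ± 15.7 in Control, and Ly6c1 averaged 44.6 ± 9.19 in DKD and 35.2 ± 5.69 in Control. Lpl averaged 16.7 ± 3.56 in DKD and 44.0 ± 26.6 in Control. Plvap and Ly6c1 overlapped within 1 SD in DKD but not in Control, where Lpl overlapped both. Fabp4 averaged 24.8 ± 22.3 in DKD, above Lpl there, and 9.25 ± 4.35 in Control, below Egfl7 there. Egfl7 averaged 14.9 ± 1.62 in DKD and 13.1 ± 2.66 in Control. Ehd3 stood at 5.04 ± 0.715 in DKD and 8.51 ± 1.00 in Control, near Cdh5 at 6.07 ± 1.94 in DKD and 7.00 ± 1.84 in Control. The lowest were Sost at 0.671 ± 0.432 in DKD and 0.732 ± 0.162 in Control, Gata5 at 0.448 ± 0.221 in DKD and 0.469 ± 0.149 in Control, and Vwf at 0.261 ± 0.107 in DKD and 0.510 ± 0.396 in Control. The ranges of these 3 within 1 SD overlapped in each group. Lengths cover every annotated exon, so a gene with rarely used exons, such as Vwf with 16.1 kilobases, is placed lower than its main transcript would be. The places of Lpl (10.5 kilobases) and Fabp4 (4.49 kilobases) near the top depend on such lengths too, so their order is uncertain.

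**Figure D5:**
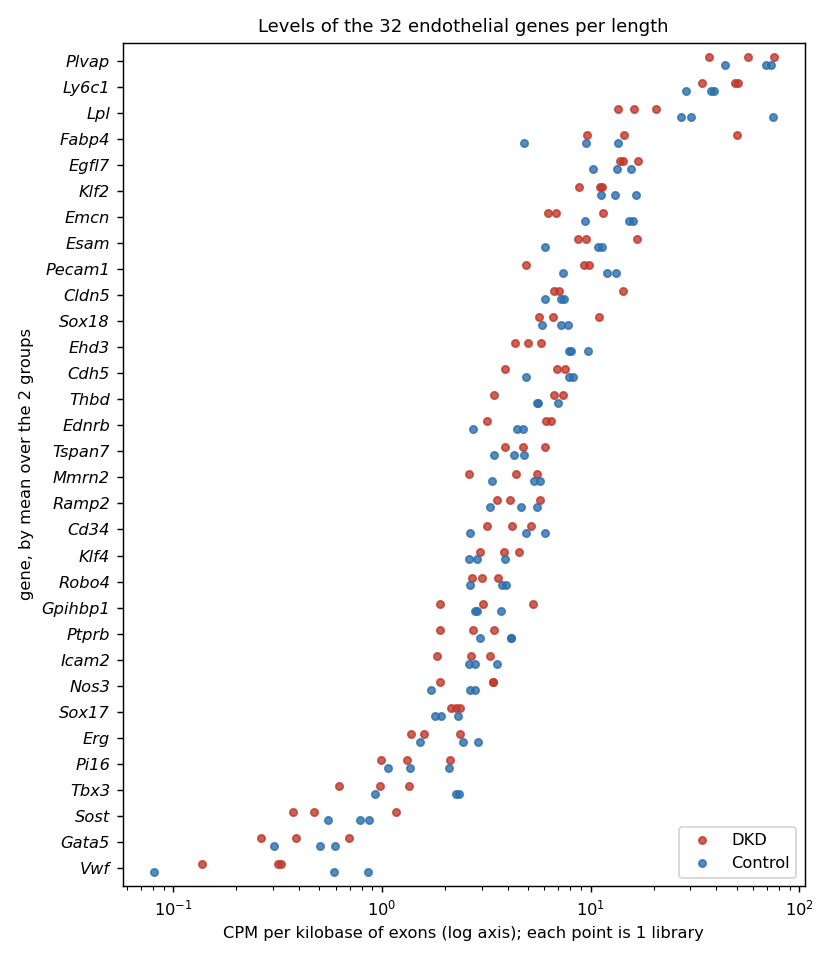
CPM per kilobase of exons (log axis) of the 32 endothelial genes, ordered by the mean of both groups, with 1 point per library, DKD above Control in each row. Plvap, Ly6c1 and Lpl are at the top and Vwf, Gata5 and Sost at the bottom.

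Since the library pattern was shared by most of the list, each gene was also set against the summed counts of the 32 other pan-endothelial genes in the same library, a scale chosen after the data were seen. On it 8 of the 32 genes (25%) were higher in every DKD library than in every Control library, namely Cldn5, Ly6c1, Egfl7, Sox17, Klf4, Nos3, Ednrb and Fabp4. Of all genes tested 17.9% were higher in this way (21.2% in either direction), on a scale whose denominator averaged less in DKD (719 ± 140 CPM) than in Control (866 ± 152 CPM). None of the 32 was lower without overlap, against 3.28% of all genes. Ly6c1 stood at 10.2%, 10.3% and 10.7% of the pan-endothelial counts in DKD, against 6.35%, 7.27% and 6.87% in Control. Nos3 stood at 1.41%, 1.76% and 1.76% in DKD, against 1.15%, 1.21% and 1.02% in Control. Ednrb stood at 2.44%, 3.43% and 3.28% in DKD, against 1.90%, 2.25% and 1.66% in Control. Cdh5 stood at 2.91%, 3.60% and 3.94% in DKD, against 3.48%, 3.66% and 2.94% in Control, an overlap on this scale too. Ehd3 stood at 5.90%, 4.71% and 3.55% in DKD, against 6.35%, 5.85% and 7.34% in Control, so that DKD replicate 1 lay just above Control replicate 2 and the groups touched. Lpl overlapped as well, since DKD replicate 1 at 30.3% lay above Control replicate 1 at 28.5%. Ehd3 and Lpl, which stood apart in CPM, thus overlapped on this scale. For Ehd3 the overlap was narrow, with means of 4.72 ± 1.18% in DKD and 6.51 ± 0.757% in Control. Whether either gene followed endothelial RNA in general was not tested.

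Other endothelial genes were read from lists of their own. Of the 32 other pan-endothelial genes 24 had a log2 fold change below 0, with a median of −0.19, 0 passed by edgeR and 8 had an unadjusted p under 0.05, 2 higher and 6 lower in DKD (25%, against 22.6% of all genes). The smallest p-values belonged to Kdr, a receptor for the growth factor that podocytes supply, at 21.1, 29.2 and 33.2 CPM in DKD against 70.5, 49.8 and 53.2 CPM in Control (adjusted p 0.0573 by edgeR), and to Ece1. Of 10 venous and lymphatic genes 9 were tested and 0 passed by edgeR, with 1 at an unadjusted p under 0.05 (11.1%, against 22.6% of all genes), Nr2f2, a nuclear receptor of venous identity, at −0.29 ± 0.12. Of 12 arterial genes 0 passed by edgeR and 2 had an unadjusted p under 0.05 (16.7%, against 22.6% of all genes), Fbln5, an elastic fibre protein, at −1.27 ± 0.32, and Dll4, a Notch ligand, at −0.58 ± 0.21. Of 8 genes of capillaries around tubules 0 passed by edgeR and 4 had an unadjusted p under 0.05, all lower in DKD (50%, against 10.9% of all genes lower and 22.6% either way). Igfbp3, an IGF binding protein, was among them at 40.2, 103 and 111 CPM in DKD against 342, 258 and 290 CPM in Control (adjusted p 0.0600 by edgeR), as was Npr3, a natriuretic peptide receptor, at −0.80 ± 0.32. Of the 8, 7 had a log2 fold change below 0 (87.5%, against 49.8% of all genes) and 1 above, at 0.57. Their sums were 612, 1501 and 797 CPM in DKD replicates 1 to 3, against 1296, 1223 and 1250 CPM in Control replicates 1 to 3. These sums overlapped, with DKD replicate 2 the highest of all libraries.

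Of 5 adhesion molecules for leukocytes 4 were tested, 0 passed by edgeR and 1 had an unadjusted p under 0.05 (25%, against 22.6% of all genes). Icam1 was measured at 46.2, 47.7 and 84.9 CPM in DKD, against 33.4, 35.3 and 15.6 CPM in Control (1.08 ± 0.36, adjusted p 0.142 by edgeR), with no overlap between groups. Vcam1 overlapped, at 26.3, 24.0 and 34.1 CPM in DKD and 28.4, 26.3 and 9.91 CPM in Control. Of 10 genes of clotting control 9 were tested, 0 passed by edgeR and 1 had an unadjusted p under 0.05 (11.1%, against 22.6% of all genes), with Tfpi, an inhibitor of tissue factor, at −1.08 ± 0.38 (adjusted p 0.154) and Procr, the protein C receptor, at 0.57 ± 0.39. Among 10 leukocyte markers 0 passed by edgeR and 2 had an unadjusted p under 0.05 (20%, against 22.6% of all genes), both higher in DKD, with sums of 115, 252 and 203 CPM in DKD and 160, 183 and 93.0 CPM in Control. Their part in the levels of Icam1 or Ly6c1 was not tested. Among 8 mesangial and smooth muscle markers 0 passed by edgeR and 1 had an unadjusted p under 0.05 (12.5%, against 22.6% of all genes), with sums of 432 ± 37.4 CPM in DKD and 440 ± 80.7 CPM in Control.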

How the data were processed

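Glomerular RNA was measured in 3 DKD and 3 Control libraries. The authors deposited raw counts per gene without normalization. The submitters' processing notes name fastp, HISAT2, StringTie, edgeR and the build GRCm39. Not given in the sources used here: versions, annotation release and strand use in counting. Values of 4 occur 6267 times, against 3129 for 3 and 1993 for 5, and whether the counts were converted from coverage is unknown. Library totals ran from 71154026 to 83576494 counts, so counting error is small beside the spread between libraries, except at low counts.

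Symbols and exon lengths came from GENCODE M21 on GRCm38, which matched 55141 identifiers and missed 260. Since that build differs from the submitters', coordinates of the counted genes are not printed. The promoter table is on GRCm38.p6. Genes kept by filterByExpr (minimum count 10) were scaled with TMM. R 4.3.3 and edgeR 4.0.16 gave the quasi-likelihood test of DKD over Control with no covariate, Benjamini-Hochberg adjustment over all genes and a threshold of 0.05. The ± beside a fold change is an SE, otherwise an SD. The procedure was also run on simulated counts, drawn independently for each gene. They held no shift shared by the genes of a library, so that run says nothing about such shifts here.

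The 32 genes and the other lists were chosen with earlier results of these data known. All 32 are described. Of other lists, up to 4 members past the threshold are named, otherwise the 2 with the smallest p, and some of the most abundant or defining cell type markers as levels. The values of 1 gene that this rule names are not reported here. Alternatives were other scaling, filters, DESeq2 1.42.0, limma-voom 3.58.1, the replicate number as a block, a transcript length trend removed (5 degrees of freedom) and each library left out. Ratios to pan-endothelial counts and left-out libraries for overlap were added after the data were seen.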

Additional observations from a re-analysis of the deposited data

How the results depend on the processing

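Of 448 comparisons of a single endothelial gene under an alternative, 28 changed direction and 3 became significant, and 19 of the 32 genes kept their direction in every alternative tried. With the length trend removed the log2 fold change turned to 0.073 for Pi16, 0.012 for Cd34, −0.012 for Sox18 and −0.032 for Gpihbp1, all within their errors. With single libraries left out, 13 of the 32 changed sign. Ranges were −0.79 to 0.15 for Sost, −0.39 to 0.28 for Pi16, −0.52 to 0.19 for Gata5, −0.41 to 0.036 for Cdh5, −0.0080 to 0.63 for Cldn5, −0.062 to 0.48 for Esam, −0.39 to 0.15 for Cd34, −0.42 to 0.086 for Plvap, −0.47 to 0.043 for Mmrn2, −0.18 to 0.33 for Sox18, −0.23 to 0.17 for Ramp2, −0.25 to 0.22 for Thbd and −0.33 to 0.42 for Gpihbp1. The cause was not tested. The number of the 32 past the threshold, 0 as reported, was 1 with the filter of at least 1 CPM (Ehd3), 2 with DESeq2 (Ehd3 and Lpl) and 1 at an adjusted p under 0.1 (Ehd3), and 0 with any library left out. At an unadjusted p under 0.05 it was 5 with the length trend removed and between 2 and 7 with a library left out. The median ran from −0.24 without Control replicate 3 to 0.051 without DKD replicate 1. Genes whose groups did not overlap numbered 8 on the ratio scale and from 2 to 11 with a library left out, the highest without Control replicate 3, all 11 lower in DKD (46.8% of all genes then, 24.0% lower). Without DKD replicate 1 or Control replicate 1 it was 6, with 4 higher and 2 lower (38.6% of all genes then, 19.7% higher and 18.9% lower). The direction of these counts thus depended on the library left out. The 32 genes held 0.0988% of DKD counts and 0.138% of Control counts, or 0.120% and 0.156% without mitochondrially encoded genes. By library the share of all counts was 0.0702%, 0.107% and 0.119% in DKD replicates 1 to 3. In Control replicates 1 to 3 the share was 0.146%, 0.139% and 0.128%, without overlap between groups. Without the 3 lipid handling genes it was 0.0706% in DKD and 0.0863% in Control, and in Control replicate 3 it was 0.0548%, against 0.128% with them. With a library left out, the share of all 32 ran from 0.0888% to 0.113% in DKD and from 0.134% to 0.142% in Control. Over all genes 228 passed, 516 with the 1 CPM filter, 56 with no filter, 2483 with DESeq2, 1478 at an adjusted p under 0.1, and between 1 (without Control replicate 1) and 386 (without Control replicate 3) with a library left out. Scaled by library totals alone, all genes had a median of −0.13 and the 32 genes one of −0.24.

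With the replicate number as a block 0 genes passed, so the block ended every call. Same-numbered libraries did not deviate together, with correlations of −0.18, 0.066 and −0.22, and 1 of 6 libraries correlated best with its own number. The labels do not say whether a shared number pairs samples. With 3 libraries per group, deviations from the group mean are few and bound to each other, so these correlations cannot decide it.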

Other observations

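Some vessel genes, chosen after their values were seen, followed single libraries. Lyve1, a receptor of lymphatic vessels and some macrophages, was at 0, 1.04 and 7.21 CPM in DKD replicates 1 to 3, against 1.40, 0.754 and 0.106 CPM in Control replicates 1 to 3. Ccl21a, a chemokine of lymphatic endothelium, was at 2.57, 5.62 and 17.9 CPM in DKD, against 5.24, 6.08 and 1.48 CPM in Control. Both were highest in DKD replicate 3, the library with the highest adipocyte sum. Bcl6b, an endothelial repressor, was at 3.68, 6.75 and 5.00 CPM in DKD, against 8.67, 11.8 and 3.07 CPM in Control, with Control replicate 3 lowest as for Vwf. Erythrocyte transcripts summed to 275, 1378 and 524 CPM in DKD and to 355, 394 and 744 CPM in Control, with DKD replicate 2 highest in DKD and Control replicate 3 highest in Control.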
